A study of Homo sapiens with 9 samples.

Results

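Every human collagen chain gene in the count table was examined, which gave 44 genes out of 26475 gene symbols. Members were taken by symbol alone, as COL, a type number, A and a chain number, and were grouped by collagen class. The symbol rule uses no expression value, but collagens were taken as the subject with earlier results of these data known. RNA sequencing was done on A375, a BRAF-mutant human melanoma cell line, in 3 groups of 3 libraries. The groups were cells given the vehicle control DMSO, cells given 5 µM TP-472 and cells given 10 µM TP-472, all for 24 h and all in DMEM with fetal bovine serum. The compound TP-472 blocks the bromodomains of BRD7 and BRD9, subunits of SWI/SNF chromatin remodeling complexes. The design text calls the libraries biological replicates, and all come from a single cell line in culture, so no other cells of a tumor are represented by design.

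Collagens are the main structural proteins of the extracellular matrix (ECM), and every collagen molecule is a trimer of alpha chains wound into a triple helix. Fibrillar chains build the banded fibrils of connective tissue, type IV chains form the sheet-like network of basement membranes, and type VI chains form beaded microfilaments around cells. Fibril-associated collagens with interrupted triple helices (FACIT) sit on the surface of fibrils, and transmembrane collagens are anchored in the plasma membrane. Melanoma cells make part of the matrix that they grow in, and collagens signal back to cells through integrins and discoidin domain receptors.

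The 9 libraries held 42483091 to 51298130 counts assigned to genes, of which ribosomal RNA genes took 8.20% to 19.9%. SOX10, a transcription factor of the melanocyte lineage, was present in each library at 363 to 426 CPM (counts relative to library size, TMM-scaled), and MITF at 23.3 to 35.9 CPM. The pigment cell markers were low or absent, since TYR was 0 in every library, DCT reached 0.0192 CPM in a single library and MLANA did not pass 0.346 CPM. Of 7 fibroblast markers, none was at 0 in every library, THY1 did not pass 0.0946 CPM, and DCN lay between 0.143 and 1.01 CPM. Single markers of other cell types called higher at 10 µM were KDR of endothelium, CD68 of macrophages and KRT10 of keratinocytes (KDR and CD68 also at 5 µM). The endothelial markers PECAM1, CDH5 and VWF were not called. Their log2 fold changes at 5 µM and 10 µM were -1.01 and -0.57 for PECAM1, 0.54 and 1.09 for CDH5 and -0.26 and 0.31 for VWF. KRT5 (-0.93 and 0.28) and KRT14 (0.05 and 0.07) of keratinocytes were also not called, and the T cell marker CD3E was 0 in every library. Replicate 1 at 10 µM stood apart from its group, since a fit on exonic length and GC content explained 8.27% of how its genes deviated from the group mean, against 3.37% and 4.38% for replicates 2 and 3 and at most 0.414% for the DMSO and 5 µM libraries. The group mean includes replicate 1, so the values of replicates 2 and 3 are not independent of it.

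The collagen genes together gave 3294, 3324 and 3296 CPM in DMSO, 1969, 2098 and 1984 at 5 µM and 1033, 1218 and 1222 at 10 µM. The sum was lower at each dose step without overlap between the groups, and the 5 µM and 10 µM means were 61.0% and 35.0% of the DMSO mean (61.3% and 35.1% with no scaling factor applied). As a share of all counts, the collagens took between 0.324% and 0.337% in DMSO, between 0.189% and 0.216% at 5 µM and between 0.105% and 0.125% at 10 µM. In bulk RNA, a drop in the number of cells that transcribe a gene and a drop in its RNA per cell cannot be told apart. The summed CPM of the 7 fibroblast markers, of which 6 were tested, was also lower with dose, ranging from 29.2 to 31.4 in DMSO, from 19.2 to 21.1 at 5 µM and from 11.3 to 15.1 at 10 µM. PDGFRB, which made up 22.8 of the mean sum of 30.4 CPM in DMSO, was called lower at both doses and PDGFRA at 10 µM. The other 4 tested were not called, with log2 fold changes at 5 µM and 10 µM of 0.62 and -0.09 for LUM, 0.23 and 0.03 for DCN, 0.16 and -0.51 for POSTN and -1.81 and -0.64 for FAP. Of 4 neural crest and melanoma markers, all tested and none at 0 in every library, SOX9 and NGFR were called lower at both doses and S100A1 at 10 µM, and AXL was under the fold limit. Their summed CPM, mostly AXL, ranged from 635 to 648 in DMSO, from 480.3 to 484 at 5 µM and from 456 to 527 at 10 µM. The part of either marker list in the collagen result was not tested.

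Divided by exonic length, the highest collagen level in DMSO was that of COL9A3, at 122 ± 2.097 CPM per kb. It was followed by COL4A2 at 48.97 ± 0.262, COL6A1 at 47.9 ± 0.522, COL5A2 at 47.3 ± 0.902, COL4A1 at 33.3 ± 0.720, COL6A2 at 19.8 ± 0.517 and COL13A1 at 14.9 ± 0.244 CPM per kb (mean ± SD of 3 libraries). The libraries of COL6A1 and COL5A2 overlapped, so these 2 cannot be ordered, whereas the other neighbours in this order did not overlap. The length counts the exons of all annotated transcripts of a gene, 19.3 kb for COL4A2, 14.7 kb for COL4A1 and 5.34 kb for COL6A1. The order therefore also depends on the annotation, and no other length was tried. Before division, COL4A2 was highest in DMSO at a mean of 945 CPM, followed by COL9A3 at 590 and COL4A1 at 491. Type I collagen, the main collagen of skin, was low, with COL1A1 at 1.04 ± 0.0150 CPM per kb and COL1A2 at no more than 0.145 CPM in any library.

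By class, the summed CPM at 5 µM and 10 µM stood at 54.9% and 25.6% of DMSO for type IV, at 49.9% and 32.8% for type VI, at 68.6% and 41.8% for the FACIT chains, at 70.8% and 36.7% for the transmembrane chains and at 69.3% and 48.3% for the fibrillar chains. The 8 genes outside these classes stood at 104% and 76.2% of DMSO. The basement membrane class had the lowest remaining share at 10 µM and type VI the lowest at 5 µM, although the ranking of classes was not tested. Each class sum rests on few genes: COL4A1 and COL4A2 carried nearly all of the type IV sum and COL9A3 most of the FACIT sum. The median log2 fold change of the type IV genes tested was 0.43 at 5 µM and -0.06 at 10 µM. That of the type VI genes tested was -1.30 and -1.92.

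**Figure D1:**
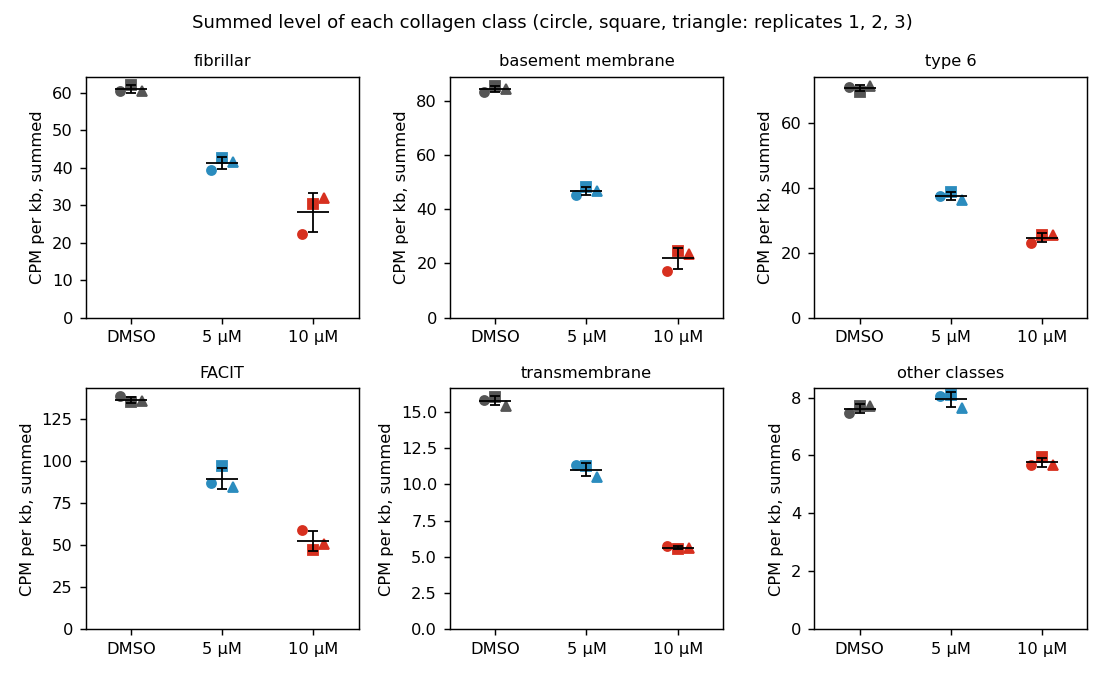
Summed level of each collagen class in CPM per kb of exon (y axis, from 0, scales differ between panels) in the DMSO, 5 µM and 10 µM libraries. Points are libraries, with circles, squares and triangles for replicates 1, 2 and 3, and bars give the mean ± SD of 3. In 5 of the 6 panels the groups lie lower in dose order without overlap, and in the panel of other classes DMSO and 5 µM overlap and 10 µM lies lower.

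Of the 44 genes, 32 passed the filter on low counts and entered edgeR's quasi-likelihood test, in which p-values were adjusted by the Benjamini-Hochberg method over all 16417 genes tested. A gene was called when its fold change was at least 1.5 and its adjusted p was under 0.05. At 5 µM, 10 collagens were called lower and 2 higher, which is 31.3% and 6.25% of those tested, where 2.72% and 2.14% of all genes tested were called lower and higher. At 10 µM, 13 were called lower and 1 higher, or 40.6% and 3.13%, beside 10.5% and 8.57% of all genes. All 10 genes lower at 5 µM were also lower at 10 µM, although both comparisons share the DMSO libraries. The median log2 fold change of the 32 genes was -0.15 at 5 µM and -0.57 at 10 µM, against 0.01 and 0.01 over all genes. Of the 32, 13 had a log2 fold change above 0 at 5 µM and 7 at 10 µM, most of them not called. The plot of fold changes by class shows genes called lower in every class, while the genes called higher were COL5A3 at both doses and COL17A1 at 5 µM.

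**Figure D2:**
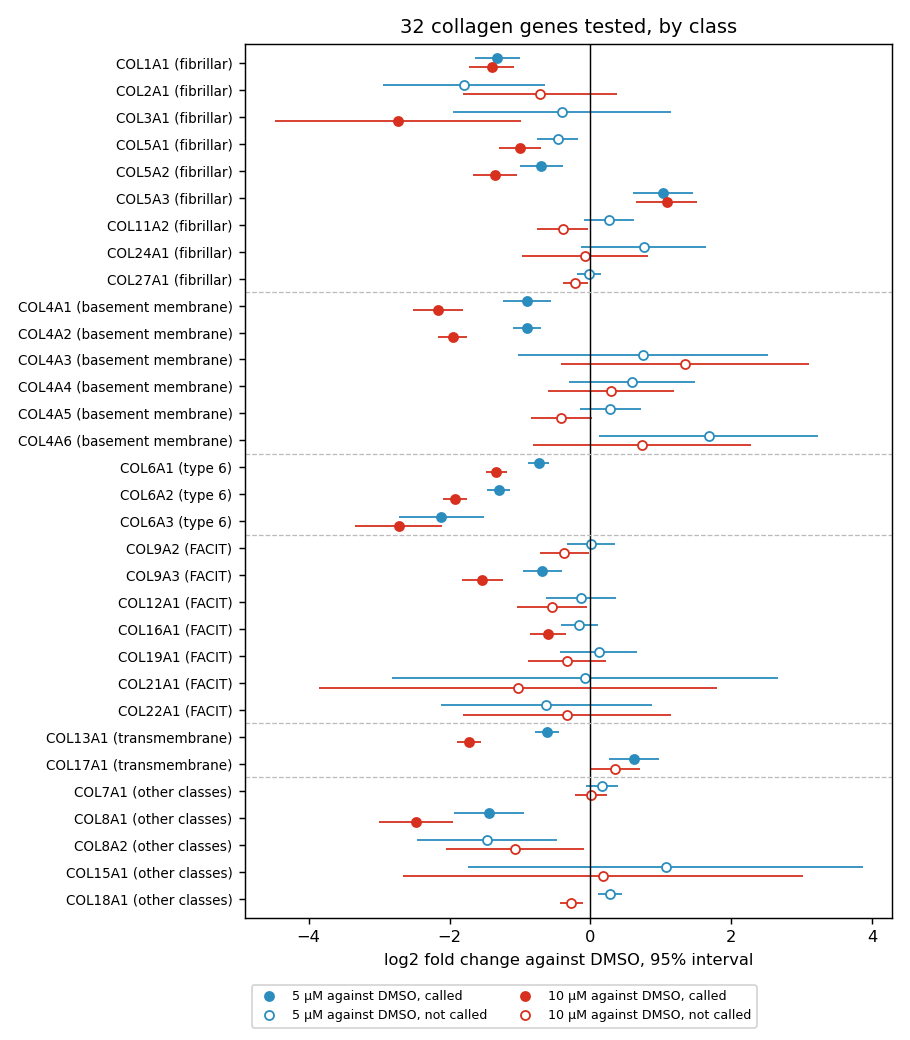
Log2 fold change against DMSO (x axis) of the 32 collagen genes tested, grouped by class (y axis), at 5 µM (blue) and 10 µM (red). Lines are 95% intervals, filled points are called and open points are not. Fibrillar, type IV and FACIT genes include both called and uncalled members, all 3 type VI genes tested lie to the left of 0 at both doses, and COL5A3 is the only filled point to the right of 0 at both.

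**Figure D3:**
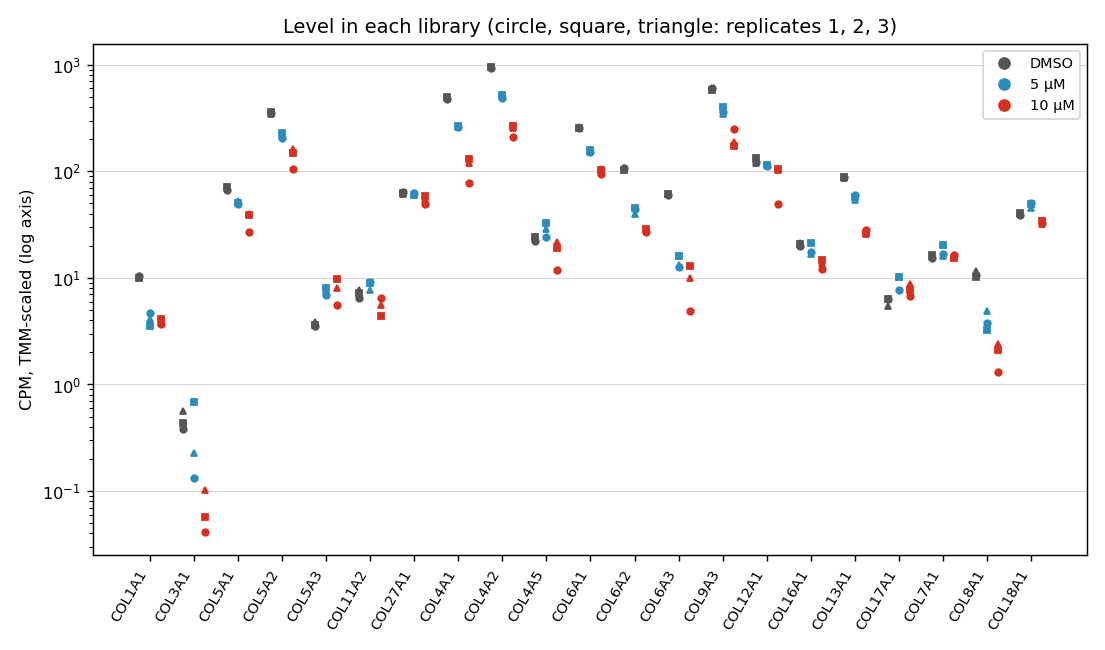
Level in each library of the 21 collagen genes that were called in a comparison or averaged at least 10 CPM (y axis, TMM-scaled CPM on a log axis). Grey, blue and red stand for DMSO, 5 µM and 10 µM, and circles, squares and triangles for replicates 1, 2 and 3. COL4A2 and COL9A3 are near the top and COL3A1 lies under 1 CPM throughout. The red circle, 10 µM replicate 1, lies apart from its group for COL6A3 and COL12A1.

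Among the 11 fibrillar genes, 9 were tested, of which 2 were lower and 1 higher at 5 µM, and 4 were lower and 1 higher at 10 µM. COL1A1, the major chain of type I fibrils, was at 10.3, 10.1 and 10.3 CPM in DMSO, 4.69, 3.54 and 4.09 at 5 µM and 3.68, 4.15 and 3.79 at 10 µM. It was lower at both doses, with log2 fold changes of -1.32 ± 0.14 (SE, adjusted p = 0.000456) and -1.40 ± 0.14 (SE, adjusted p = 6.395e-05). COL5A2, a chain of the type V collagen that nucleates fibrils and limits their width, was the most abundant fibrillar gene, at 350.5, 360.5 and 348 CPM in DMSO, 205, 228 and 220.1 at 5 µM and 104, 148 and 162 at 10 µM. The groups were separate, and the log2 fold change was -0.70 ± 0.14 (SE, adjusted p = 0.0113) at 5 µM and -1.35 ± 0.14 (SE, adjusted p = 7.30e-05) at 10 µM, though the 5 µM call was lost without DMSO replicate 2 or without 5 µM replicate 1 or 3 (highest adjusted p = 0.0629). Its partner COL5A1 was at 67.6, 71.6 and 71.4 CPM in DMSO, 49.7, 50.4 and 52.5 at 5 µM and 26.8, 38.7 and 39.7 at 10 µM. The 3 groups did not overlap. The log2 fold change of -0.46 ± 0.13 (SE, adjusted p = 0.0520) at 5 µM, a fold of 1.38, was under the fold limit and not called. That of -1.0 ± 0.13 (SE, adjusted p = 0.000355) at 10 µM was called. Without 10 µM replicate 1 the 5 µM log2 fold change was -0.47 (adjusted p = 2.87e-06), still under the fold limit.

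COL5A3, which encodes a further type V chain, moved in the other direction. COL5A3 was at 3.54, 3.62 and 3.85 CPM in DMSO, 6.97, 7.999 and 7.53 at 5 µM and 5.60, 9.73 and 7.97 at 10 µM. All 6 TP-472 libraries lay above all DMSO libraries, with 10 µM replicate 1 the lowest of them. The log2 fold change was 1.03 ± 0.19 (SE, adjusted p = 0.00862) at 5 µM and 1.08 ± 0.19 (SE, adjusted p = 0.00204) at 10 µM, a fold of 2.04 and 2.12, and the call held at both doses under all 18 alternative settings. Since it is the only collagen called higher at both doses, the 250 bases upstream of its RefSeq transcription start are shown, from chr19:10010505-10010754 (GRCh38.p14, minus strand, 66.0% GC), with the motifs CCAAT and GGGCGG in capitals.
COL5A3 promoter: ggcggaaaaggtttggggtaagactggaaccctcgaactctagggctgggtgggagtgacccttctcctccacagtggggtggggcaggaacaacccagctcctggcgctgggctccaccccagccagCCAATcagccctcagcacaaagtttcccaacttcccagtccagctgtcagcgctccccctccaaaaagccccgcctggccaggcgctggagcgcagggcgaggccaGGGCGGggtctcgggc
Over all 35116 RefSeq promoters of that length, 32.01% held CCAAT and 42.6% held GGGCGG on either strand, and no TATAAA or TGANTCA was found in this window.

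The remaining fibrillar genes were low or moved little. COL3A1, whose type III fibrils accompany type I in pliable tissue, was at 0.382, 0.432 and 0.567 CPM in DMSO, 0.131, 0.678 and 0.226 at 5 µM and 0.0413, 0.0577 and 0.102 at 10 µM. Its 3 lowest values were those at 10 µM, where it rested on 2, 3 and 5 counts, and the 5 µM libraries were widely spread. The log2 fold change was -0.41 ± 0.69 (SE, adjusted p = 0.795) at 5 µM and -2.73 ± 0.78 (SE, adjusted p = 0.0225) at 10 µM, and the latter call was lost without any one of the DMSO replicates or without 10 µM replicate 2 (highest adjusted p = 0.0873). COL11A2, a chain of cartilage fibrils, was at 6.50, 7.28 and 7.78 CPM in DMSO, 9.20, 8.99 and 7.72 at 5 µM and 6.47, 4.42 and 5.52 at 10 µM. The 5 µM libraries overlapped those of DMSO and all 10 µM libraries lay below DMSO, and the log2 fold changes of 0.27 ± 0.16 (SE, adjusted p = 0.364) and -0.39 ± 0.16 (SE, adjusted p = 0.0878) were not called. COL27A1, another fibrillar chain known from cartilage, was at 63.4, 63.3 and 61.2 CPM in DMSO, 62.7, 60.2 and 62.7 at 5 µM and 49.4, 58.1 and 54.7 at 10 µM. DMSO and 5 µM overlapped, and the 95% interval of the 5 µM log2 fold change was -0.19 to 0.16. All 10 µM libraries lay below DMSO, with a log2 fold change of -0.21 ± 0.08 (SE, adjusted p = 0.0591) that was not called (95% interval -0.39 to -0.04).

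All 6 basement membrane genes were tested, and COL4A1 and COL4A2 were called lower at both doses. These 2 chains form the network present in nearly all basement membranes. COL4A1 was at 482, 503 and 488 CPM in DMSO, 259, 267 and 262 at 5 µM and 77.9, 130.1 and 120.2 at 10 µM. COL4A2 was at 939, 946 and 949 CPM in DMSO, 489.6, 522 and 507 at 5 µM and 209.6, 268 and 254 at 10 µM. In both genes the 3 groups stood apart, and 10 µM replicate 1 was the lowest library. The log2 fold change of COL4A1 was -0.90 ± 0.15 (SE, adjusted p = 0.00554) at 5 µM and -2.17 ± 0.16 (SE, adjusted p = 8.14e-06) at 10 µM, and that of COL4A2 was -0.90 ± 0.09 (SE, adjusted p = 0.000295) and -1.95 ± 0.09 (SE, adjusted p = 5.83e-07). At 10 µM these are folds of 4.49 and 3.87, which became log2 fold changes of -1.97 and -1.86 without 10 µM replicate 1. COL4A5, which pairs with other type IV chains in kidney and skin, was at 22.2, 24.1 and 24.2 CPM in DMSO, 24.4, 32.7 and 28.7 at 5 µM and 11.96, 19.1 and 21.8 at 10 µM. All 5 µM libraries were above DMSO and all 10 µM libraries below it, but the log2 fold changes of 0.28 ± 0.19 (SE, adjusted p = 0.429) and -0.42 ± 0.19 (SE, adjusted p = 0.127) were not called, and 10 µM replicate 1 was again the lowest value.

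COL4A1 and COL4A2 lie head to head on chromosome 13, with 126 bases between their RefSeq transcription starts (chr13:110307158-110307283, GRCh38.p14, 80.2% GC). In GENCODE v29 the spans of the 2 genes overlap and some transcripts of each start inside this interval, so the first stretch below overlaps an annotated exon of COL4A1 and the second exons of both genes. The 2 stretches of it that hold a motif are shown because both genes fell, and the capitals mark CCAAT and GGGCGG on the plus strand, at chr13:110307166-110307195 and chr13:110307207-110307236.
COL4A1/COL4A2 CCAAT: cgggccgagctccCCAATttgttggcgctg
COL4A1/COL4A2 GGGCGG: ccggcggtgcgcGGGCGGcgcctcaaaggg
The other type IV pairs have the same arrangement, with 418 bases between the starts of COL4A4 and COL4A3 and 379 between the nearest starts of COL4A6 and COL4A5, and none of those 4 genes was called in a comparison. COL4A6 was at 0.604, 0.535 and 0.757 CPM in DMSO, 2.04, 1.68 and 2.36 at 5 µM and 0.103, 1.56 and 1.49 at 10 µM. Its level was higher in all 5 µM libraries than in DMSO, but 10 µM replicate 1 lay under every other library and the fitted log2 fold changes of 1.68 ± 0.70 (SE, adjusted p = 0.170) and 0.73 ± 0.69 (SE, adjusted p = 0.456) were not called. Without that library COL4A6 was called higher at both doses, with log2 fold changes of 1.68 (adjusted p = 0.000643) and 1.27 (adjusted p = 0.00603).

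Type VI collagen is assembled from chains of COL6A1, COL6A2 and a further chain, most often that of COL6A3, and all of these 3 genes were lower at both doses. COL6A1 was at 257, 253 and 258 CPM in DMSO, 153, 158 and 151 at 5 µM and 95.4, 103 and 106 at 10 µM. COL6A2 was at 108, 103 and 108 CPM in DMSO, 44.2, 45.1 and 40.1 at 5 µM and 27.1, 29.05 and 28.1 at 10 µM. COL6A3 was at 60.5, 61.9 and 60.8 CPM in DMSO, 12.8, 16.1 and 13.2 at 5 µM and 4.88, 12.9 and 10.0 at 10 µM. No TP-472 library reached a DMSO value in any of the 3 genes, and the 5 µM and 10 µM libraries overlapped only for COL6A3. The log2 fold changes of COL6A1 were -0.73 ± 0.07 (SE, adjusted p = 0.000154) and -1.34 ± 0.07 (SE, adjusted p = 8.07e-07). Those of COL6A2 were -1.30 ± 0.08 (SE, adjusted p = 1.50e-05) and -1.92 ± 0.08 (SE, adjusted p = 2.09e-07). COL6A3 had the largest decrease of the collagens above 1 CPM at both doses, -2.12 ± 0.27 (SE, adjusted p = 0.00114) and -2.72 ± 0.28 (SE, adjusted p = 6.91e-05), folds of 4.34 and 6.59. Without 10 µM replicate 1 the 10 µM value of COL6A3 was -2.42. Every one of these 6 calls held under all 18 alternative settings. COL6A5 and COL6A6 did not pass the filter.

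COL6A1 and COL6A2 lie on the same strand of chromosome 21, 93.0 kb apart, while COL6A3 is on chromosome 2. The upstream sequence of COL6A2, the gene with the smallest adjusted p among the collagens at 10 µM, is shown up to its first annotated exon (chr21:46097862-46098096, GRCh38.p14, plus strand, 79.6% GC), with TATAAA and GGGCGG or its complement in capitals.
COL6A2 promoter: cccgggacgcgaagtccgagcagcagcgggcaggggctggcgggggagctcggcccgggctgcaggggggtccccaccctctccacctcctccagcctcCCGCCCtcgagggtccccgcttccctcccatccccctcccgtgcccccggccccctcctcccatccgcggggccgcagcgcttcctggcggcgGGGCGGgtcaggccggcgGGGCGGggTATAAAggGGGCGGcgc
It holds 1 TATAAA, found in 10.7% of all promoters, and 4 matches to GGGCGG. Of the 44 RefSeq promoters of the 32 collagen genes that could be matched, 18.2% held TATAAA, 27.3% CCAAT, 54.5% GGGCGG and 2.27% TGANTCA, beside 10.7%, 32.01%, 42.6% and 6.57% of all promoters. The genes matched are not the same set as the genes tested. COL1A1, COL3A1, COL5A2, COL6A1, COL8A1 and COL9A3, all called lower at 10 µM, had no promoter entry, and untested genes such as COL10A1 and COL11A1 are included. These shares therefore do not describe the collagens called.

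Among the 10 FACIT genes, 7 were tested, with 1 lower at 5 µM and 2 lower at 10 µM. COL9A3, a chain of the type IX collagen that coats cartilage fibrils, was at 601, 581 and 587 CPM in DMSO, 357, 401 and 346 at 5 µM and 250.3, 172 and 188 at 10 µM. The 3 groups stood apart, and here 10 µM replicate 1 was the highest library of its group. The log2 fold change was -0.68 ± 0.13 (SE, adjusted p = 0.00828) at 5 µM and -1.53 ± 0.13 (SE, adjusted p = 1.87e-05) at 10 µM, and the 5 µM call was lost at -0.55 when the trend with length and GC content was removed. COL12A1, which bridges fibrils, was at 122, 133 and 119 CPM in DMSO, 113, 114 and 114 at 5 µM and 49.8, 105 and 103 at 10 µM. All TP-472 libraries were below DMSO and the 10 µM value in replicate 1 was far below the other 2, but the log2 fold changes of -0.13 ± 0.22 (SE, adjusted p = 0.789) and -0.54 ± 0.22 (SE, adjusted p = 0.0880) were not called. Without that library the 10 µM value was -0.27. COL16A1, a FACIT chain found near both fibrils and basement membranes, was at 20.02, 20.7 and 21.3 CPM in DMSO, 17.4, 21.4 and 16.8 at 5 µM and 12.2, 14.8 and 13.7 at 10 µM. All 10 µM libraries were below all DMSO libraries, but the log2 fold change of -0.60 ± 0.12 (SE, adjusted p = 0.00318) at 10 µM was close to the fold limit and the call was lost at -0.53 without replicate 1, at -0.31 with the length and GC trend removed, and under 2 other settings.

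Of the 4 transmembrane genes, COL13A1 and COL17A1 were tested, and they went opposite ways at 5 µM. COL13A1, found at cell adhesions and neuromuscular junctions, was at 88.1, 89.2 and 86.4 CPM in DMSO, 60.3, 57.9 and 53.4 at 5 µM and 28.01, 26.3 and 25.6 at 10 µM. The groups did not overlap, and the log2 fold change was -0.62 ± 0.08 (SE, adjusted p = 0.000877) at 5 µM, near the fold limit and lost at -0.57 without 5 µM replicate 3 and at -0.56 with the length and GC trend removed, and -1.72 ± 0.08 (SE, adjusted p = 4.64e-07) at 10 µM. COL17A1, the hemidesmosome collagen of basal keratinocytes, was at 6.28, 6.399 and 5.51 CPM in DMSO, 7.67, 10.1 and 10.1 at 5 µM and 6.71, 7.69 and 8.78 at 10 µM. All TP-472 libraries were above all DMSO libraries, and the log2 fold change of 0.62 ± 0.16 (SE, adjusted p = 0.0347) at 5 µM was called whereas that of 0.35 ± 0.16 (SE, adjusted p = 0.113) at 10 µM was not. The 5 µM call was lost under 6 of 18 alternatives, among them the removal of any DMSO replicate (highest adjusted p over all = 0.153). Of the keratinocyte markers, KRT10 was called higher at 10 µM and KRT5 and KRT14 were not called. KRT14 lay at 5.50 to 8.76 CPM over all libraries and KRT1 reached 0.0821 CPM in a single library. The part of such expression in the COL17A1 values was not tested.

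The other classes held 5 tested genes, of which COL8A1 was lower at both doses. COL8A1, a short-chain collagen of vessel walls and the cornea, was at 10.7, 10.1 and 11.5 CPM in DMSO, 3.81, 3.25 and 4.87 at 5 µM and 1.32, 2.096 and 2.38 at 10 µM. The groups were separate, with log2 fold changes of -1.44 ± 0.22 (SE, adjusted p = 0.00323) and -2.48 ± 0.23 (SE, adjusted p = 4.21e-05). COL7A1, which forms the anchoring fibrils under the epidermis, was at 15.5, 16.5 and 15.8 CPM in DMSO, 16.9, 20.4 and 16.2 at 5 µM and 16.3, 15.4 and 16.4 at 10 µM. The groups overlapped, and the 95% intervals of its log2 fold change were -0.07 to 0.40 at 5 µM and -0.22 to 0.24 at 10 µM. COL18A1, the basement membrane collagen from which endostatin is cut, was at 39.1, 40.9 and 39.9 CPM in DMSO, 50.7, 49.1 and 45.6 at 5 µM and 32.7, 34.3 and 32.4 at 10 µM. All 5 µM libraries were above DMSO and all 10 µM libraries below it, with log2 fold changes of 0.28 ± 0.07 (SE, adjusted p = 0.0411) and -0.27 ± 0.07 (SE, adjusted p = 0.0180), both under the fold limit, and the second was 0.09 with the length and GC trend removed. Of the exonic bases of COL18A1, 16.4% overlap SLC19A1 on the opposite strand, and the strand setting of the counts is unknown, so part of its reads could be assigned to either gene.

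The difference between doses was tested directly. Going from 5 µM to 10 µM, 9 collagens were lower (28.1% of those tested, beside 2.59% of all genes) and 0 were higher (beside 1.42%) by edgeR's quasi-likelihood test, and 0 were higher at an unadjusted p under 0.05 or by DESeq2. The 9 genes were COL4A1, COL4A2, COL5A2, COL6A1, COL6A2, COL8A1, COL9A3, COL11A2 and COL13A1. The further log2 change was -1.26 ± 0.16 (SE, adjusted p = 0.00128) for COL4A1, -1.10 ± 0.08 (SE, adjusted p = 5.94e-05) for COL13A1, -1.05 ± 0.09 (SE, adjusted p = 0.000159) for COL4A2 and -0.85 ± 0.13 (SE, adjusted p = 0.00334) for COL9A3, and these 4 calls held under all 18 alternatives. The other 5 were lost under at least 1 alternative, and with the length and GC trend removed 5 of the 9 were called. COL1A1 and COL5A3 did not pass the test, with differences between doses of -0.08 (95% interval -0.40 to 0.23) and 0.05 (95% interval -0.37 to 0.47). COL6A3 differed by -0.60 ± 0.27 (SE, adjusted p = 0.1999), which also did not pass.

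Partner chains assemble into the same trimers, so their ratio was followed in each library. A ratio within a library does not depend on library scaling. Of 8 pairs, 7 could be tested, by an exact two-sided permutation test of the 6 TP-472 libraries against the 3 DMSO libraries, for which the smallest p is 0.0238, with Benjamini-Hochberg adjustment over the 7. The pair COL1A2/COL1A1 was left out because COL1A2 did not pass the filter. COL6A3 counts per COL6A1 count were 0.235, 0.245 and 0.235 in DMSO, 0.0834, 0.102 and 0.0877 at 5 µM and 0.0512, 0.125 and 0.0945 at 10 µM. COL6A2 counts per COL6A1 count were 0.421, 0.408 and 0.419 in DMSO, 0.289, 0.285 and 0.265 at 5 µM and 0.285, 0.282 and 0.265 at 10 µM. Both type VI ratios were lower in 6 of 6 TP-472 libraries than in any DMSO library, with log2 differences of -1.44 and -0.58 (exact permutation p = 0.0238, adjusted p = 0.0417 each). COL5A2 counts per COL5A1 count were 5.19, 5.03 and 4.87 in DMSO, 4.13, 4.53 and 4.19 at 5 µM and 3.89, 3.83 and 4.08 at 10 µM. That ratio was also lower in 6 of 6 libraries, with a log2 difference of -0.29 (exact permutation p = 0.0238, adjusted p = 0.0417). COL9A2 counts per COL9A3 count were 0.0153, 0.0128 and 0.0135 in DMSO, 0.0201, 0.0231 and 0.0237 at 5 µM and 0.0293, 0.0341 and 0.0305 at 10 µM. This ratio was higher in 6 of 6, by 0.93 on the log2 scale (exact permutation p = 0.0238, adjusted p = 0.0417). COL9A1, the remaining type IX gene, had at most 4 counts in any library and was not tested. All of these are ratios of RNA counts, and assembled trimers were not measured.

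The ratio of the main type IV chains was followed in the same way. COL4A2 counts per COL4A1 count were 1.95, 1.88 and 1.95 in DMSO, 1.89, 1.95 and 1.93 at 5 µM and 2.69, 2.06 and 2.12 at 10 µM. The DMSO and 5 µM values overlapped, the 3 values at 10 µM were above both, with replicate 1 the highest, and the pooled difference of 0.12 on the log2 scale did not pass (exact permutation p = 0.262, adjusted p = 0.333). The ratios COL4A6/COL4A5 and COL8A2/COL8A1 also did not pass (adjusted p = 0.333 each, exact permutation test). With 10 µM alone against DMSO, 3 against 3 libraries, no p can be under 0.1.

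**Figure D4:**
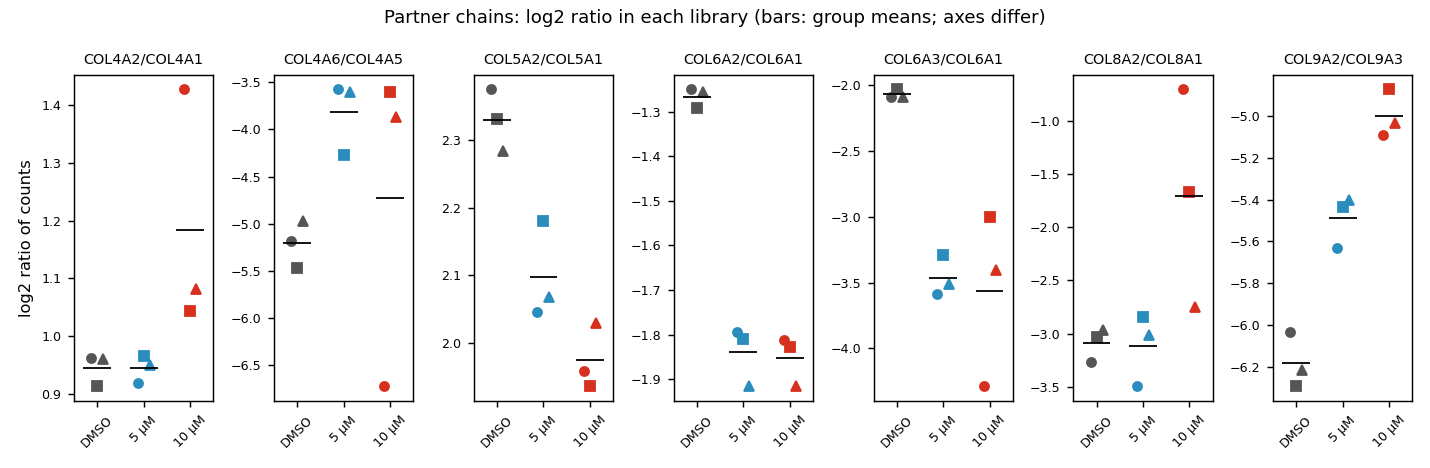
Log2 ratio of counts of partner collagen chains (y axis, scales differ) in each DMSO, 5 µM and 10 µM library. Circles, squares and triangles are replicates 1, 2 and 3 and bars are group means. For COL5A2/COL5A1, COL6A2/COL6A1 and COL6A3/COL6A1 all TP-472 points lie under the DMSO points, and for COL9A2/COL9A3 all lie above. The points of 10 µM replicate 1 are the extremes of the COL4A2/COL4A1, COL4A6/COL4A5, COL6A3/COL6A1 and COL8A2/COL8A1 panels.

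Genes that act on collagen were counted in lists. Of 21 genes for procollagen folding, modification and secretion, all were tested, with 1 lower at 5 µM, where 2.72% of all genes tested were, and 6 lower at 10 µM, where 10.5% were. The median log2 fold change of the list was -0.15 at 5 µM and -0.32 at 10 µM, beside 0.01 and 0.01 over all genes. The 6 were PLOD1 and PLOD2, which hydroxylate lysines, P4HA1 and P4HA2, which hydroxylate prolines, P3H3 and the collagen chaperone SERPINH1. On the log2 scale, PLOD1 changed by -0.61 ± 0.06 (SE, adjusted p = 0.000352) at 5 µM and -1.14 ± 0.06 (SE, adjusted p = 1.44e-06) at 10 µM, PLOD2 by -1.05 ± 0.12 (SE, adjusted p = 0.000135) at 10 µM, P4HA1 by -0.90 ± 0.07 (SE, adjusted p = 1.43e-05) and P3H3 by -0.85 ± 0.10 (SE, adjusted p = 0.000202).

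Of 13 genes for procollagen cleavage and crosslinking, 11 were tested, and 4 were lower and 1 higher at each dose, beside 2.72% lower and 2.14% higher of all genes at 5 µM and 10.5% and 8.57% at 10 µM. The list median was -0.27 at 5 µM and -1.22 at 10 µM. On the log2 scale, the crosslinking enzyme LOXL3 changed by -1.35 ± 0.09 (SE, adjusted p = 3.23e-05) at 5 µM and -1.97 ± 0.10 (SE, adjusted p = 7.27e-07) at 10 µM. PCOLCE, which enhances cleavage of the procollagen tail, changed by -1.07 ± 0.10 (SE, adjusted p = 0.000222) and -1.79 ± 0.10 (SE, adjusted p = 1.84e-06). LOXL4 and LOXL2 changed by -1.56 ± 0.06 (SE, adjusted p = 2.39e-07) and -1.22 ± 0.07 (SE, adjusted p = 1.86e-06) at 10 µM. TLL2, a protease of the tolloid family, changed by 1.25 ± 0.18 (SE, adjusted p = 0.00214) and 1.19 ± 0.18 (SE, adjusted p = 0.000775), and LOX itself was at 0.367 to 1.16 CPM over all libraries.

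Of 11 collagen receptor genes, 9 were tested, with 1 lower at 5 µM and 7 lower at 10 µM, beside 2.72% and 10.5% of all genes. ITGA2 was at 184, 196 and 192 CPM in DMSO, 301, 304 and 312 at 5 µM and 131, 304 and 301 at 10 µM. All 5 µM libraries lay above DMSO, and 10 µM replicate 1 lay under every other library. The log2 fold changes of 0.68 ± 0.25 (SE, adjusted p = 0.121) at 5 µM and 0.36 ± 0.25 (SE, adjusted p = 0.294) at 10 µM were not called. Their SE rests on a spread shared by all 9 libraries, 10 µM replicate 1 included. The list median was -0.40 at 5 µM and -0.80 at 10 µM. The integrin chain ITGA10 was lower at both doses, with log2 fold changes of -1.58 ± 0.20 (SE, adjusted p = 0.000970) and -2.13 ± 0.20 (SE, adjusted p = 4.10e-05). At 10 µM the integrin chains ITGA1 and ITGA11 changed by -1.5 ± 0.25 (SE, adjusted p = 0.00135) and -1.19 ± 0.24 (SE, adjusted p = 0.00388), and the collagen uptake receptor MRC2 by -1.05 ± 0.09 (SE, adjusted p = 2.18e-05). ITGA1 was at 71.1 CPM in 10 µM replicate 1 beside 156 and 168 CPM in the other replicates, the library that was also low for COL6A3 and COL12A1.

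Replicate 1 at 10 µM was below the mean of replicates 2 and 3 in 19 of the 24 collagens that averaged at least 1 CPM, with a median ratio of 0.809. The same ratio was not computed over all genes, so these values cannot show whether collagens differ from other genes in this library. The ratio was 0.0678 for COL4A6, 0.426 for COL6A3 and 0.481 for COL12A1, and it was above 1 for COL9A3 (1.39), COL11A2 (1.30), COL9A2 (1.27), COL13A1 (1.08) and COL7A1 (1.03). The exonic lengths of those 5 genes were 4.22 to 6.74 kb, apart from 11.1 kb for COL7A1, and their GC contents were 59.0% to 67.4%. Genes of like length and GC content also lay below 1, among them COL6A2 (0.950), COL6A1 (0.913) and COL5A3 (0.633). Without this library 12 collagens were called lower at 5 µM and 13 at 10 µM, where COL8A2 was gained and COL16A1 lost. All 9 libraries share a single fit and its spread, so this library also entered the p-values of 5 µM against DMSO. Without it, the adjusted p at 5 µM went from 0.789 to 0.0260 for COL12A1 and from 0.429 to 0.0291 for COL4A5. Both stayed under the fold limit. The calls over all genes changed too. Of 16745 genes then tested, 666 were lower at 5 µM and 1841 at 10 µM, beside 447 and 1730 of 16417 with the library kept.

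**Figure D5:**
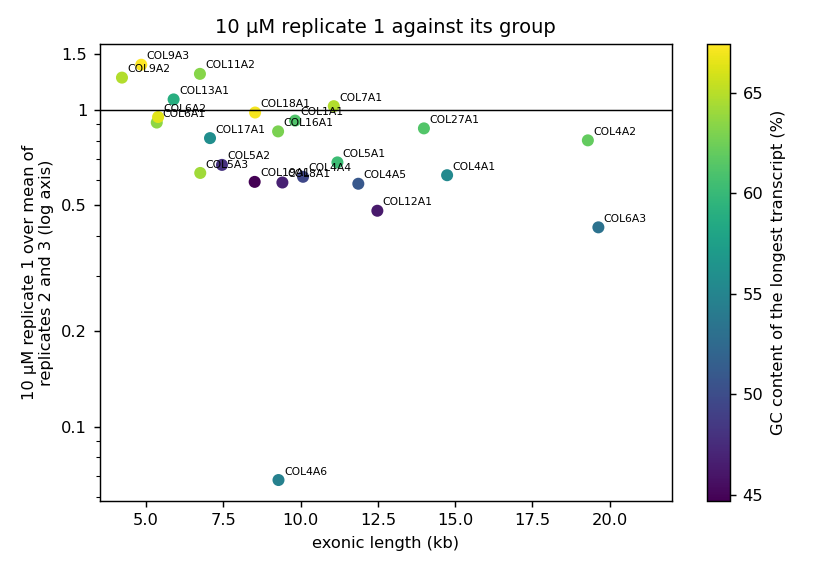
Level of each collagen in 10 µM replicate 1 divided by the mean of replicates 2 and 3 (y axis, log scale) against exonic length in kb (x axis), with points colored by GC content of the longest transcript in percent. The line marks a ratio of 1. COL9A3 lies highest at 1.39, COL6A3 and COL12A1 lie under 0.5 and COL4A6 lies lowest at 0.0678.

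A further 11 genes were tested but were neither called nor averaged 10 CPM: COL2A1, COL24A1, COL4A3, COL4A4, COL4A6, COL8A2, COL9A2, COL15A1, COL19A1, COL21A1 and COL22A1. Their means over all libraries ran from 0.250 to 7.56 CPM, and the smallest adjusted p among them was 0.0545, for COL2A1 at 5 µM. COL2A1, the main cartilage collagen, was at 0.986, 0.700 and 0.496 CPM in DMSO, 0.285, 0.136 and 0.205 at 5 µM and 0.413, 0.461 and 0.448 at 10 µM. The 12 genes that did not pass the filter were COL1A2, COL11A1, COL6A5, COL6A6, COL9A1, COL14A1, COL20A1, COL23A1, COL25A1, COL10A1, COL26A1 and COL28A1. None of these had more than 16 counts or 0.326 CPM in a library, and a change in them was not tested.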

How the data were processed

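Total RNA of A375 cells was sequenced on an Illumina HiSeq. The values used are expected counts per gene symbol, which the authors made and deposited; the submitters' processing notes name RSEM 1.2.15, Bowtie2 2.1.0 and hg38, and for the annotation, filters and strand setting of the counting: not given in the sources used here. Libraries were, by the study's methods, strand-specific (dUTP) and made from mRNA taken with oligo-dT, whereas the design text states ribosomal RNA depletion, and this was not resolved.

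Expected counts were rounded (41 of the 44 collagens were whole in every library, all except COL4A2, COL5A1 and COL9A3). Genes were filtered with filterByExpr, scaled by TMM (factors 0.957 to 1.03) and tested with edgeR 4.0.16 (R 4.3.3; glmQLFit and glmQLFTest, group as the only term, all 9 libraries in one fit). Calls needed a fold change of 1.5 or more with adjusted p below 0.05. Each SE of a log2 fold change was derived from the test, as its absolute value over the square root of the F statistic. The 95% intervals were built from that SE. The scripts were tested on simulated counts. Ratios used counts plus 0.5. Exonic lengths, over the exons of all transcripts of a gene, and GC contents, of the longest transcript, came from GENCODE v29. Promoters came from RefSeq (GRCh38.p14). Alternatives were other scaling factors, other filters, DESeq2 1.42.0, a replicate block, leaving out each library, fitting only the groups compared, leaving out ribosomal RNA genes, removing the length and GC trend and no fold limit.

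Each of the 44 genes was named; values in every library were given for those called in a comparison or averaging 10 CPM or more, and for COL4A6 and COL2A1, which were chosen after their values were seen. Per pathway list, values were given for up to 4 genes called that averaged at least 1 CPM, those with the largest changes at 10 µM. Values of TLL2, LOX and ITGA2 were given in addition, and P4HA2 and SERPINH1 were named without values. The members and lists were chosen with earlier results of these data known.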

Additional observations from a re-analysis of the deposited data

Results flagged for a closer look

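COL11A2 and COL18A1 had opposite signs at the 2 doses, with a difference between doses that passed the adjusted p. COL11A2 had a log2 fold change against DMSO of 0.27 at 5 µM and -0.39 at 10 µM, and the 10 µM level was lower than the 5 µM level by -0.66 on the log2 scale (edgeR's quasi-likelihood test, adjusted p = 0.0348). That call was lost under 11 of 18 alternatives, with adjusted p from 0.00131 to 0.136. COL18A1 had 0.28 at 5 µM and -0.27 at 10 µM, with a difference of -0.55 between doses (adjusted p = 0.00209), which is under the fold limit. Its adjusted p ran from 6.91e-09 to 0.0349 over the alternatives, and the 10 µM value was 0.09 with the length and GC trend removed. In both genes each 5 µM library was above each 10 µM library. No explanation was tested.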

How the results depend on the processing

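Of 35 calls of collagen genes, 24 held under every alternative tried for them (8 of 12 at 5 µM, 12 of 14 at 10 µM and 4 of 9 between doses). The number called higher at 5 µM was 2 as reported, 1 with the replicate block and 1 to 3 when a library was left out. Replicate numbers did not pair the libraries (correlations of same-numbered deviations from -0.0493 to 0.0322 over 9 pairs); beside COL17A1 at 5 µM, the block lost COL11A2 between doses and gained COL4A5. The number higher at 10 µM was 1 as reported and 1 to 2 with a library left out, COL4A6 being gained without 10 µM replicate 1. Between doses, 9 genes were called lower, and 5 with the length and GC trend removed (COL5A2, COL6A1, COL6A2 and COL11A2 were lost), a setting that tests fewer genes. The other counts stayed within 1.5 times, and no call changed direction. With 10 µM libraries alone, the log2 ratio differences were -0.36 for COL5A2/COL5A1, -0.59 for COL6A2/COL6A1, -1.49 for COL6A3/COL6A1 and 1.18 for COL9A2/COL9A3, each with adjusted p = 0.117 by the exact permutation test, which cannot go under 0.1 there. With a library left out they were -0.32 to -0.27, -0.59 to -0.57, -1.55 to -1.29 and 0.86 to 1.01 (adjusted p = 0.125 without a DMSO library, a design that cannot pass here, and 0.05 or more without a TP-472 library, which did not pass). Genes under 1 CPM, such as COL3A1, rest on few counts, so their fold changes have wide errors.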
